A study of Mus musculus with 8 samples.

Results

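The 8 genes described here are 5 serpins (Serpina3n, Serpine2, Serpinb6b, Serpinb9 and Serpinh1), the plasminogen activators Plau and Plat, and the urokinase receptor Plaur. They were taken by symbol from a table of 55304 genes, and all 8 were among the 17440 that passed a filter on low counts. RNA was measured in mouse kidney cells freshly selected with DBA, the Dolichos biflorus lectin, whose sugar ligand is found on collecting duct epithelium. Donor mice were either wild type (WT) or of an ADPKD genotype, a model of dominantly inherited polycystic kidney disease, and each genotype was given DMSO as vehicle or the CREB inhibitor 666-15 (CREB is a transcription factor that answers to cAMP). The inhibitor was dosed at 5 mg/kg once a day in cycles of 5 days on and 2 days off, from postnatal day 11 over 3 weeks. This gave 4 groups of 2 libraries, 8 in all. The labels name neither the gene altered in the ADPKD mice nor the promoter of any Cre. Whether each library is its own animal is not stated either, so p-values measure only the spread between these libraries, which may be technical.

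Serpins are a family of protease inhibitors that trap their target by presenting a loop as bait and changing shape once it is cut. Urokinase (Plau) and tissue plasminogen activator (Plat) cleave plasminogen to plasmin, a broad protease of fibrin and matrix, and the receptor Plaur holds urokinase on the cell surface, while serpins of the E clade inhibit both activators. In the kidney urokinase is made by tubule epithelium and tissue plasminogen activator by glomerular cells, collecting duct and endothelium. Not all serpins inhibit extracellular proteases: the B clade acts inside cells, and Serpinh1 is a collagen chaperone.

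Libraries held 15108793 to 19702638 counts. Levels are CPM (scaled counts relative to library size), given for replicate 1 and then replicate 2 of a group, and log2 fold changes carry the SE of the edgeR fit. The libraries were not alike in sex. Xist, transcribed from the inactive X of females, reached 17688 counts in replicate 2 of the treated WT group and at most 8 in the other 7 libraries. Ddx3y of the Y chromosome was at 0 in that library and at 1776 or more in the others. Markers of collecting duct principal cells were present in every library, and so were markers of other kidney cells. Proximal tubule markers held 1.64% to 1.91% of counts in vehicle-treated WT, 0.675% to 0.697% in treated WT and 0.025% to 0.0505% in ADPKD libraries. Thick limb and distal tubule markers held 0.898% to 0.926% in vehicle-treated and 0.409% to 0.525% in treated WT libraries. The part of these markers in the inhibitor differences of WT cells was not tested. The library with Xist also differed from its partner in markers of other cell types. Its shares were lower for endothelial (0.0909% against 0.157%), podocyte (0.064% against 0.114%) and stromal markers (0.0206% against 0.0325%). They were higher for thick limb and distal tubule (0.525% against 0.409%) and intercalated cell markers (0.208% against 0.153%). Macrophage markers were equal only as a sum (0.0191%). Within it Csf1r (49.8 against 65.1 CPM), Cd14, Cd68 and Mrc1 were lower in the library with Xist. The other macrophage markers were higher there, such as C1qa (4.93 against 1.66 CPM) and Ptprc (10.1 against 5.23 CPM). In bulk samples, fewer cells of a type and less RNA per cell cannot be told apart.

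With vehicle, urokinase, its receptor, Serpina3n, Serpinb9 and Serpinh1 were higher in ADPKD than in WT cells, and tissue plasminogen activator was lower. That is 6 of the 8 genes past an edgeR adjusted p of 0.05 (5 higher, 1 lower), in a comparison in which 56.4% of all genes tested were called, 28.8% as higher and 27.6% as lower. With the inhibitor, ADPKD cells had less Serpina3n, Serpine2 and Serpinh1 and more Serpinb6b and Serpinb9 than with vehicle (2 higher and 3 lower, or 5 of 8 called, against 41.4% of all genes, 22.3% as higher and 19.1% as lower). Urokinase and its receptor did not pass in that comparison. In WT cells the inhibitor went with more Serpinb6b, Serpinb9 and Plaur (3 of 8 called and 0 lower, against 25.5% of all genes, 13.9% as higher). Between the genotypes on inhibitor 7 of 8 genes were called (5 higher, 2 lower; 46.3% of all genes, 21.8% as higher and 24.5% as lower), and between treated ADPKD and vehicle-treated WT cells all 8 were (5 higher, 3 lower; 55.3% of all genes, 28.6% as higher and 26.7% as lower). The interaction, which is the inhibitor difference in ADPKD cells minus that in WT cells, passed for 4 of 8, all in the negative direction (26.6% of all genes, 13% as lower). Neither the members' shares nor their median changes (0.74 between genotypes with vehicle and -0.39 for the inhibitor in ADPKD cells, against 0.053 and 0.017 over all genes) were tested as a set. Comparisons that share a group are not independent of each other. With 2 libraries per group, groups that do not overlap were common. Between genotypes 80% of all genes tested did not overlap with vehicle and 73.8% with inhibitor. The share was 71.6% for the inhibitor in ADPKD cells, 64.1% in WT cells and 81% between treated ADPKD and vehicle-treated WT cells.

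**Figure D1:**
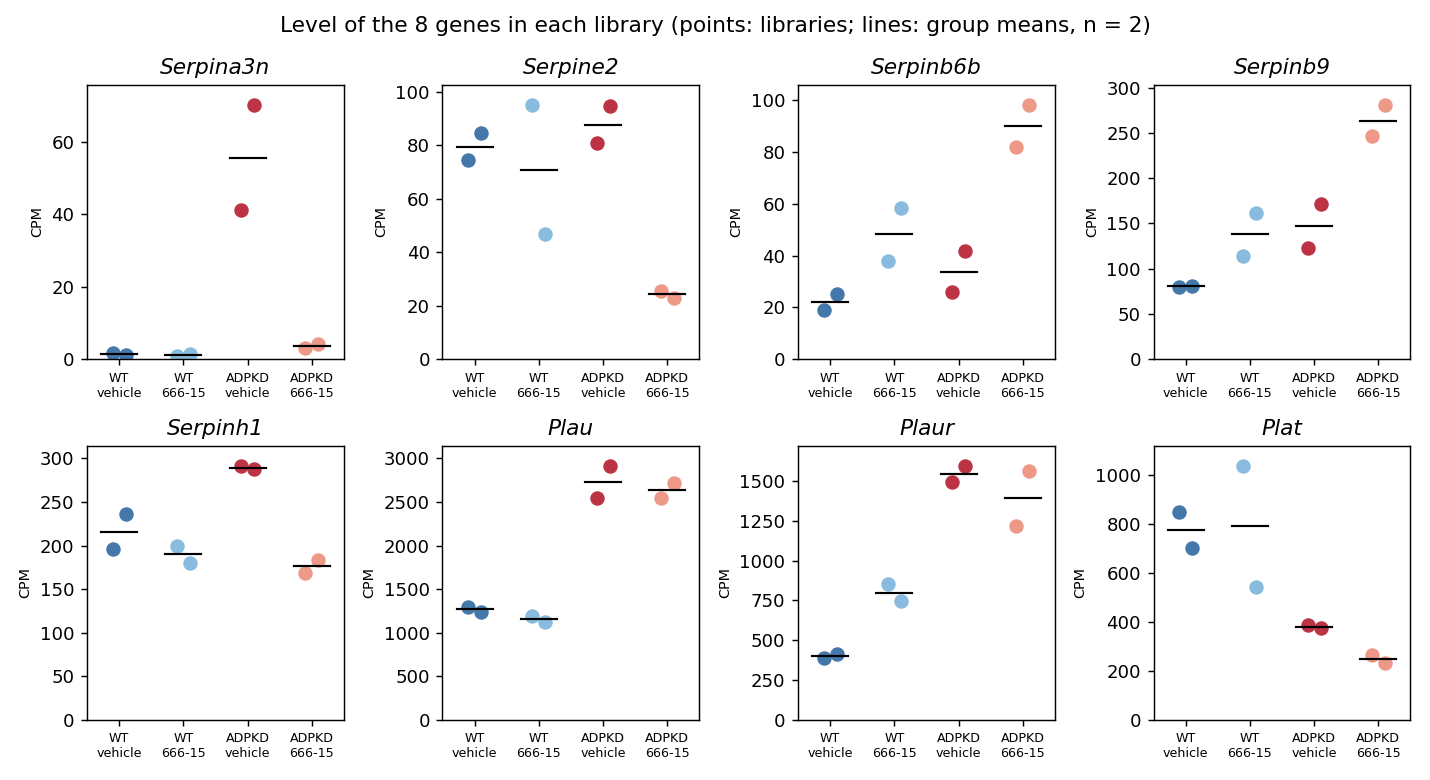
Level of each of the 8 genes in CPM on a linear axis from 0, by group; points are libraries (left, replicate 1; right, replicate 2) and lines are means of 2. Serpina3n was at 41.1 and 70.1 CPM in vehicle-treated ADPKD cells and at most 4.07 elsewhere, Plau and Plaur stayed high in both ADPKD groups, and Serpinb6b and Serpinb9 were highest in treated ADPKD cells.

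Plau encodes urokinase (GRCm38 chromosome 14, 20836660 to 20843385, plus strand). Vehicle-treated WT libraries had 1299 and 1238 CPM, treated WT libraries 1194 and 1118, vehicle-treated ADPKD libraries 2546 and 2914, and treated ADPKD libraries 2547 and 2722. Every ADPKD library was above every WT library, and the ADPKD groups overlapped. The gene was higher in ADPKD cells with vehicle by 1.11 ± 0.10 on the log2 scale (edgeR adjusted p = 7.51e-07) and with inhibitor by 1.19 ± 0.10 (adjusted p = 1e-06). Its difference with the inhibitor was -0.05 ± 0.10 in ADPKD cells (adjusted p = 0.703) and -0.13 ± 0.10 in WT cells (adjusted p = 0.347). Relative to transcript length, Plau was above 99.6% to 99.9% of genes tested in each of the 4 groups. Its RNA was thus abundant in these bulk samples under all conditions. Proximal tubule markers held 1.64% to 1.91% of counts in vehicle-treated WT and 0.025% to 0.0287% in vehicle-treated ADPKD libraries. Of 10 thick limb and distal tubule markers 8 were lower and 0 higher in ADPKD cells with vehicle. Principal cell markers summed to 0.354% to 0.389% in vehicle-treated WT libraries and at least 1.05% in every other library. The part of these markers in the genotype differences of Plau was not tested.

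Plat encodes tissue plasminogen activator (chromosome 8, 22757727 to 22782844, plus strand) and went the other way between genotypes. Its levels were 850.5 and 700.4 CPM in vehicle-treated WT, 1038 and 543 in treated WT, 386 and 376 in vehicle-treated ADPKD and 266 and 231 in treated ADPKD libraries. All 4 ADPKD libraries were below all 4 WT libraries. The genotype difference was -1.03 ± 0.29 with vehicle (edgeR adjusted p = 0.0252) and -1.67 ± 0.30 with inhibitor (adjusted p = 0.00482). The first of these calls ended without a filter on low counts (adjusted p = 0.113), with the trend on GC content removed (0.0564), and without any 1 of the 4 libraries it compares (0.0612 to 0.133), while the estimate stayed between -0.90 and -1.18.

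The inhibitor difference of Plat in WT cells turned on 1 library. It was 0.03 ± 0.29 with both treated WT libraries, 0.42 without replicate 2 (edgeR adjusted p = 0.0327) and -0.52 without replicate 1 (adjusted p = 0.0107). In ADPKD cells Plat was at -0.62 ± 0.29 with the inhibitor (adjusted p = 0.147). This estimate passed with the 2 groups fitted alone (-0.65, adjusted p = 0.000331), without the robust option (adjusted p = 0.0495) and without either treated WT library (adjusted p = 0.000398 and 0.000569). With the inhibitor in ADPKD cells 5 of 10 podocyte and all 12 endothelial markers were lower, and 0 of either list were higher. Between genotypes with vehicle 7 podocyte markers were lower and 2 higher. Of the endothelial markers 2 were lower there, 1 was higher and 9 were not called. The 10 podocyte markers held 0.0804% to 0.0832% of counts in vehicle-treated WT, 0.064% to 0.114% in treated WT, 0.0262% to 0.0278% in vehicle-treated ADPKD and 0.0104% to 0.012% in treated ADPKD libraries. The part of either list in the Plat result was not tested.

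Plaur, the urokinase receptor, is a glycolipid-anchored surface protein (chromosome 7, 24462484 to 24475968, plus strand). The 250 bases before its RefSeq start (GRCm38.p6, chr7:24462233-24462482, plus strand) are shown because they hold the single match, in capitals, found among 6 members' promoters for the motifs searched below.
Plaur: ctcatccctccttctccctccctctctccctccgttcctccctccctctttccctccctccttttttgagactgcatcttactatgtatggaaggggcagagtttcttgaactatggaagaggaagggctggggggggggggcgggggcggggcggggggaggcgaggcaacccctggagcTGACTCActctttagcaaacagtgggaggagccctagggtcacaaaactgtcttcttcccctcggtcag
The match lies 69 bases before the start and reads TGACTCA, the letters of an AP-1 element. Promoters of 6 of the 8 genes (Serpina3n, Serpine2, Serpinb6b, Serpinb9, Serpinh1 and Plaur) were in the RefSeq table, of 32851 promoters in all.

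The motifs were searched on both strands in the 250 bases before each start. The full cAMP response element TGACGTCA, to which CREB binds, was in 1.55% of all promoters and in none of these 6. Its core letters TGACG, which also lie within the full one, was in 17.8% of all promoters and in none of the 6. The AP-1 letters TGANTCA were in 6.75% of all promoters, the STAT letters TTCNNNGAA in 7.02% and the heat shock letters GAANNTTC in 6.69%. Apart from the AP-1 match in Plaur, none of these was in the 6 windows, which says only that the letters are not there.

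Plaur was at 390 and 414 CPM in vehicle-treated WT libraries, 851 and 747 in treated WT, 1496 and 1594 in vehicle-treated ADPKD and 1219 and 1561 in treated ADPKD libraries. The WT groups were apart from each other and from both ADPKD groups, which overlapped. With vehicle it was higher in ADPKD cells by 1.94 ± 0.12 (edgeR adjusted p = 3.23e-08), a 3.84-fold difference. The inhibitor went with a rise of 0.99 ± 0.12 in WT cells (adjusted p = 6.14e-05) and a difference of -0.15 ± 0.12 in ADPKD cells (adjusted p = 0.325). Those responses differed from each other by -1.14 ± 0.17 (interaction, adjusted p = 0.00038), and on inhibitor the genotypes differed by 0.80 ± 0.12 (adjusted p = 0.000134). Macrophages also make the receptor. The 15 macrophage markers together held 0.0141% to 0.0173% of counts in vehicle-treated WT, 0.0191% in both treated WT, 0.0366% to 0.043% in vehicle-treated ADPKD and 0.0289% to 0.0367% in treated ADPKD libraries. Single macrophage markers differed in both directions between the treated WT libraries despite the equal sum. The part of macrophage markers in the Plaur differences was not tested. Principal cell markers (14 genes) summed to 0.354% to 0.389% of counts in vehicle-treated WT libraries and 1.05% to 1.16% in the other 6. Krt8 alone was at 1667 CPM in vehicle-treated WT and 5270 in vehicle-treated ADPKD cells on average. Of 13 tested, 9 were higher and 2 lower in ADPKD cells with vehicle, and 13 were higher with the inhibitor in WT cells. Between genotypes on inhibitor 3 were higher and 7 lower (median -0.82), unlike Plaur. The part of these markers was likewise not tested.

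**Figure D2:**
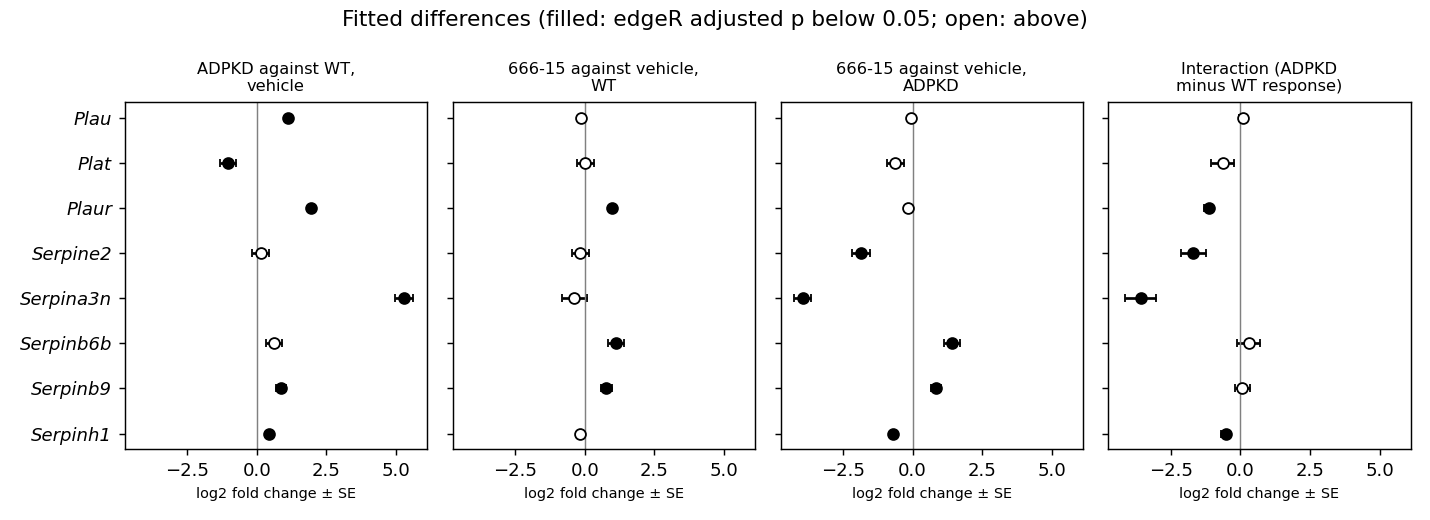
Log2 fold change ± SE of the 8 genes in 3 comparisons and the interaction; filled points passed an edgeR adjusted p of 0.05. Plau and Plaur lie to the right between genotypes and near 0 for the inhibitor in ADPKD cells, where Serpina3n and Serpine2 lie to the left.

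Among the inhibitors of the activators, Serpine2 (protease nexin-1, chromosome 1, 79794197 to 79861180, minus strand) blocks thrombin, urokinase and plasmin. It was at 74.4 and 84.8 CPM in vehicle-treated WT, 95.0 and 46.8 in treated WT, 80.9 and 94.6 in vehicle-treated ADPKD, and 25.6 and 22.9 in treated ADPKD libraries. Treated ADPKD libraries were the lowest of the 8 and the other 3 groups overlapped. Against vehicle, treated ADPKD cells were at -1.85 ± 0.32 on the log2 scale (edgeR adjusted p = 0.00405), a 3.62-fold difference. Between genotypes with vehicle it was at 0.14 ± 0.30 (adjusted p = 0.719), and with inhibitor at -1.55 ± 0.32 (adjusted p = 0.00742; -0.95 without treated WT replicate 1, and adjusted p = 0.0516 without treated ADPKD replicate 2).

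In WT cells the inhibitor difference of Serpine2 was -0.17 ± 0.30 (edgeR adjusted p = 0.741), but 0.25 without replicate 2 of the treated group (adjusted p = 0.23) and -0.77 without replicate 1 (adjusted p = 0.00189). The interaction was -1.69 ± 0.44 (adjusted p = 0.0323). It did not pass when any 1 of the 6 libraries outside the treated WT group was left out (adjusted p = 0.0816 to 0.128), and was at -1.07 without treated WT replicate 1. Endothelial markers moved with Serpine2. The 12 genes together held 0.166% to 0.19% of counts in vehicle-treated WT, 0.0909% to 0.157% in treated WT, 0.13% to 0.158% in vehicle-treated ADPKD and 0.0343% to 0.044% in treated ADPKD libraries. All 12 were lower with the inhibitor in ADPKD cells (median -1.82), and their part in the Serpine2 difference was not tested.

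**Figure D3:**
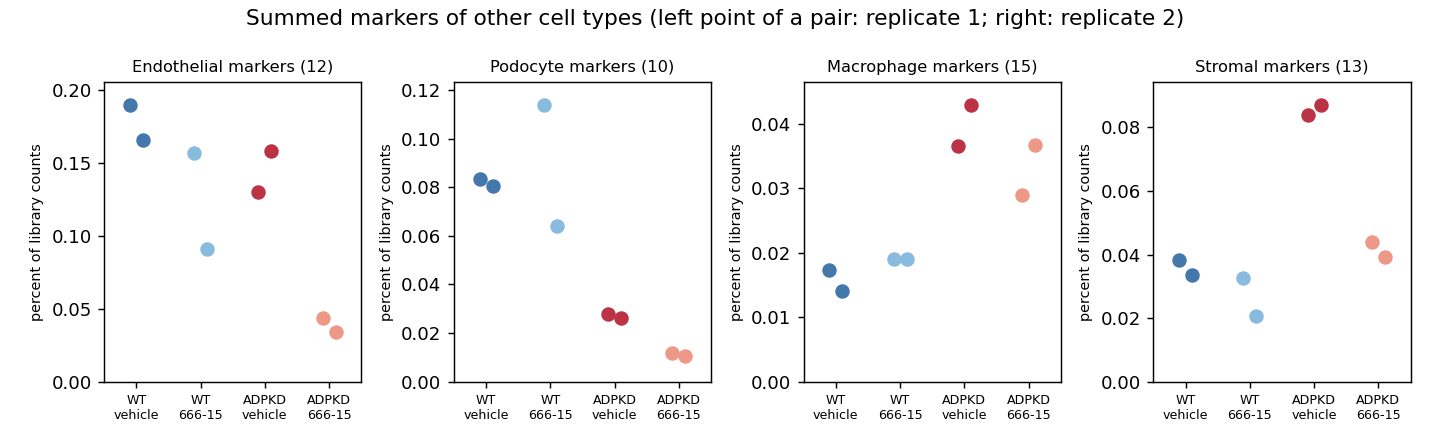
Share of each library's counts held by markers of endothelium (12 genes), podocytes (10), macrophages (15) and stroma (13), by group; points are libraries on linear axes from 0. Endothelial and podocyte markers were lowest in treated ADPKD cells, and differed between the treated WT libraries.

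Within a library, levels per kilobase of the longest annotated transcript allow the genes to be set against each other. Plaur stood at 0.350 and 0.390 of Plau in vehicle-treated WT cells and at 0.558 to 0.831 in the 6 other libraries, so the receptor's RNA was lowest relative to that of its ligand in vehicle-treated WT cells. Serpine2 stood at 0.0289 to 0.0549 of Plau in the WT libraries, 0.0219 and 0.0224 in vehicle-treated ADPKD and 0.00695 and 0.00580 in treated ADPKD libraries. Plat stood at 0.282 to 0.503 of Plau in the WT libraries and 0.0492 to 0.0879 in the ADPKD libraries. These ratios are given as values and were not tested.

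**Figure D4:**
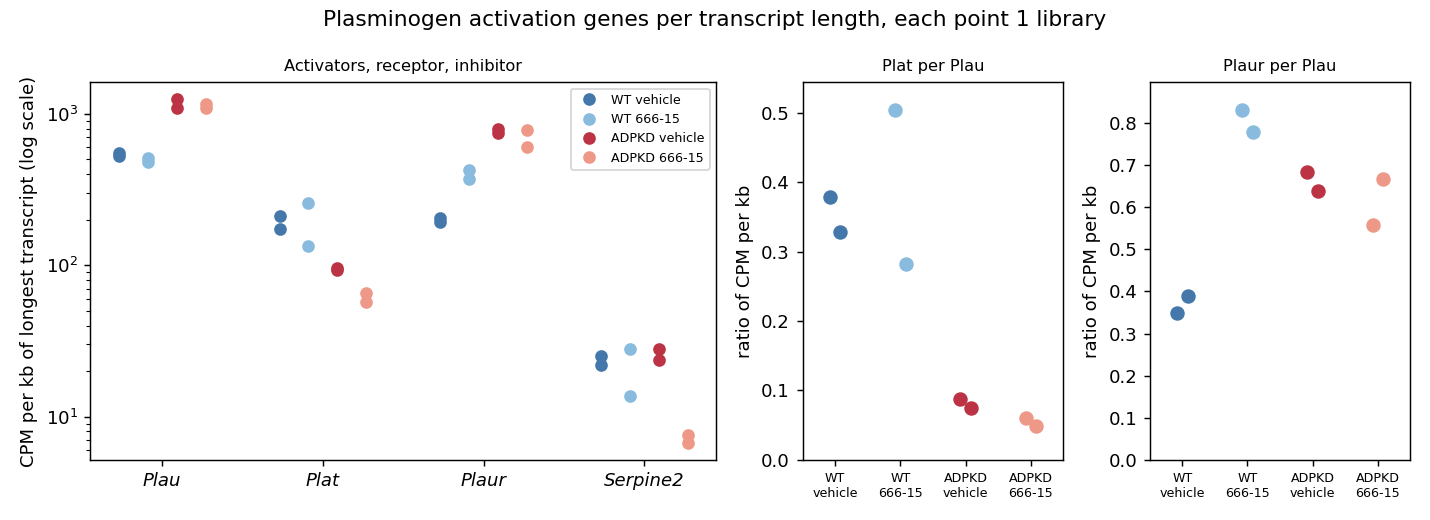
Left, CPM per kb of longest transcript (log axis) of the activators Plau and Plat, the receptor Plaur and the inhibitor Serpine2; middle and right, Plat and Plaur relative to Plau (linear axes from 0). Each point is 1 library; the ratio of Plat to Plau was at least 0.282 in WT and at most 0.0879 in ADPKD libraries.

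Serpina3n, a secreted serpin of the acute phase response (chromosome 12, 104406729 to 104414329, plus strand), changed most among the 8 genes. Its upstream sequence (GRCm38.p6, chr12:104406458-104406707, plus strand) is shown as that of the gene with the largest changes, and has no match to the motifs above.
Serpina3n: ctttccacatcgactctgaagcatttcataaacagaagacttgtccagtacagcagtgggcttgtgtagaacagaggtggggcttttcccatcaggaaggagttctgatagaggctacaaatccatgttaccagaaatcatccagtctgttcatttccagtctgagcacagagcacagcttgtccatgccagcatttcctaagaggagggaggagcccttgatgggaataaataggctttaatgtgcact
It had 1.74 and 1.06 CPM (35 and 18 counts) in vehicle-treated WT libraries and 0.928 and 1.27 CPM in treated WT libraries. In vehicle-treated ADPKD libraries it had 41.1 and 70.1 CPM (793 and 1291 counts), and in treated ADPKD libraries 3.12 and 4.07 CPM. The WT groups overlapped, treated ADPKD lay above both, and vehicle-treated ADPKD was far above all.

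Between genotypes with vehicle the difference of Serpina3n was 5.28 ± 0.33 (38.9-fold, edgeR adjusted p = 8.55e-08). Under treatment it was 15.4-fold lower in ADPKD cells (-3.95 ± 0.30, adjusted p = 3.92e-06), was at -0.37 ± 0.44 in WT cells (adjusted p = 0.586), and the interaction was -3.58 ± 0.55 (adjusted p = 0.000749). Treated ADPKD cells still differed from vehicle-treated WT cells by 1.33 ± 0.36 (adjusted p = 0.00857), a call that ended without vehicle-treated WT replicate 2 (1.03, adjusted p = 0.0634) or treated ADPKD replicate 2 (1.13, adjusted p = 0.0741). They differed from treated WT cells by 1.70 ± 0.39 (adjusted p = 0.00404), which ended without treated WT replicate 1 (adjusted p = 0.0583). The Serpina3 genes lie as a cluster of close copies whose reads can be shared. Of its other members Serpina3g was at 9.41 and 10.9 CPM in vehicle-treated WT and 4.57 and 6.30 CPM in vehicle-treated ADPKD cells (-0.90, adjusted p = 0.0149), and Serpina3f was also lower (47 and 33 counts against 0 and 2, adjusted p = 7.6e-05), opposite in direction to Serpina3n. Serpina3m, next to Serpina3n, had at most 4 counts in any library.

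Other acute phase and STAT3 response genes did not all follow Serpina3n. Of 18 listed 15 were tested, and with vehicle 8 were higher and 4 lower in ADPKD cells (median 0.53). With the inhibitor in ADPKD cells 4 were higher and 4 lower (median 0.22). Serum amyloid Saa3 (75 and 84 counts in vehicle-treated ADPKD, 3 and 3 in treated ADPKD and 2 and 6 in vehicle-treated WT libraries), haptoglobin Hp (4.27 between genotypes and -1.81 with the inhibitor in ADPKD cells) and the cytokine Il6 (3.00 and -1.78) passed in the same directions as Serpina3n in both comparisons, which share the vehicle-treated ADPKD libraries. Lipocalin Lcn2, a marker of tubule injury, was higher in ADPKD cells (4.67) and at 0.15 with the inhibitor (0.667 adjusted), and the cytokine Lif was higher in both (3.19 and 0.74).

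Serpinb6b and Serpinb9 act inside cells, Serpinb9 as an inhibitor of granzyme B. They are neighbours on chromosome 13, on the plus strand (32965209 to 32979067 and 33003250 to 33017957), with 24182 bases between them. Their upstream sequences are shown as those of the pair that rose together. The first window was cut where the GENCODE gene model begins (GRCm38.p6, chr13:32965011-32965208, plus strand). The second lies before a RefSeq start, within the span of the GENCODE gene (chr13:33004291-33004540, plus strand).
Serpinb6b: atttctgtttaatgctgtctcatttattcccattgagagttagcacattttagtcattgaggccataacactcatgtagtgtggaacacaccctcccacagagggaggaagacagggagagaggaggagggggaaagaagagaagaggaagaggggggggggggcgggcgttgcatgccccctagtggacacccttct
Serpinb9: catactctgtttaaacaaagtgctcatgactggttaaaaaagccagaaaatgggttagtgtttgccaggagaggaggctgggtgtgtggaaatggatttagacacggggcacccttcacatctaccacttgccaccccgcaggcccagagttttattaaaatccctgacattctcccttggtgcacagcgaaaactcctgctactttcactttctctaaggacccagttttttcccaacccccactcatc
Neither holds a match to the motifs above.

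Serpinb6b had 18.9 and 25.3 CPM in vehicle-treated WT, 38.0 and 58.4 in treated WT, 25.7 and 41.6 in vehicle-treated ADPKD and 81.8 and 98.1 in treated ADPKD libraries. Treated ADPKD cells were highest, and vehicle-treated ADPKD overlapped treated WT cells. It rose with the inhibitor by 1.42 ± 0.29 in ADPKD cells (edgeR adjusted p = 0.00613) and by 1.13 ± 0.29 in WT cells (adjusted p = 0.0276), and the interaction was 0.29 ± 0.41 (adjusted p = 0.655). Between genotypes with vehicle it was at 0.61 ± 0.29 (adjusted p = 0.115). This estimate rested on single libraries: leaving out replicate 2 of vehicle-treated ADPKD gave 0.20 (adjusted p = 0.571), and leaving out replicate 1 of vehicle-treated WT gave 0.39 (adjusted p = 0.445). It passed with no filter (adjusted p = 0.00288), with DESeq2 (0.0349) and when replicate 1 of vehicle-treated ADPKD was left out (0.91, adjusted p = 0.022). On inhibitor the genotypes differed by 0.90 ± 0.28 (adjusted p = 0.0344).

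Serpinb9 had 80.1 and 81.0 CPM in vehicle-treated WT, 114 and 161 in treated WT, 123 and 172 in vehicle-treated ADPKD and 247 and 281 in treated ADPKD libraries. The order of the groups was that of Serpinb6b at its ends, with overlap of the middle groups. It was higher in ADPKD cells with vehicle (0.87 ± 0.19, edgeR adjusted p = 0.00333) and with inhibitor (0.94 ± 0.19, adjusted p = 0.00288). It rose with the inhibitor by 0.84 ± 0.19 in ADPKD cells (adjusted p = 0.00608; 0.49 with the GC trend removed, adjusted p = 0.0314) and by 0.77 ± 0.19 in WT cells (adjusted p = 0.0151), with an interaction of 0.07 ± 0.26 (adjusted p = 0.887). Treated ADPKD cells were above vehicle-treated WT cells by 1.71 ± 0.19 for Serpinb9 (adjusted p = 5.05e-05) and 2.03 ± 0.30 for Serpinb6b (adjusted p = 0.000703).

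The WT inhibitor calls of both genes ended without vehicle-treated WT replicate 1 (0.93 and 0.76 for Serpinb6b and Serpinb9, edgeR adjusted p = 0.192 and 0.105), vehicle-treated WT replicate 2 (1.35 and 0.78, 0.0627 and 0.0868) or treated WT replicate 2, the library with Xist (0.78 and 0.50, 0.139 and 0.0785). The genotype call of Serpinb6b on inhibitor ended with the GC trend removed (adjusted p = 0.0545) and without treated WT replicate 1 or either treated ADPKD library (0.0705 to 0.188). Cytotoxic lymphocytes, a known source of Serpinb9, were barely detected. The 15 lymphocyte and natural killer markers held at most 0.000513% of counts in any library, and Gzmb, granzyme B, had 0 to 2 counts. Intercalated cell markers (10 genes) moved with both serpins under the inhibitor, from 0.0196% to 0.0247% of counts in vehicle-treated to 0.0544% to 0.0644% in treated ADPKD libraries (8 higher, 0 lower, median 1.92) and from 0.086% to 0.088% to 0.153% to 0.208% in WT libraries (6 higher, 0 lower, median 0.92). Between genotypes with vehicle they went the other way (0 higher, 9 lower). Of the 15 macrophage markers 3 were higher and 3 lower with the inhibitor in ADPKD cells, 6 higher and 0 lower in WT cells, and 11 higher and 1 lower between genotypes with vehicle. The part of these markers in the Serpinb6b and Serpinb9 differences was not tested. Of their close copies, Serpinb6a was higher in ADPKD cells with vehicle (1.39) and at -0.19 with the inhibitor in them, and Serpinb9b, at 0.354 to 5.05 CPM, was at 3.17 and -0.53. Reads shared between such copies cannot be told apart here.

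Serpinh1 (HSP47, chromosome 7, 99345376 to 99353239, minus strand) resides in the endoplasmic reticulum, binds procollagen and inhibits no protease. It had 196 and 236 CPM in vehicle-treated WT, 199.98 and 179.72 in treated WT, 291 and 288 in vehicle-treated ADPKD and 169 and 184 in treated ADPKD libraries. Vehicle-treated ADPKD cells were above the other 3 groups. Over all genes, Spearman's correlation of log2 fold change with GC content was -0.35 for the inhibitor in ADPKD cells. It was -0.34 for the interaction and 0.02 for the inhibitor in WT cells. The longest transcript of Serpinh1 has 56.4% GC, against 42.1% for Serpinb9 and 44.1% for Serpinb6b. With vehicle the genotypes differed by 0.42 ± 0.11 (edgeR adjusted p = 0.00465), which was 0.28 without vehicle-treated WT replicate 1 (adjusted p = 0.115). Treatment of ADPKD cells went with a fall to -0.72 ± 0.11 relative to vehicle (adjusted p = 0.000231; -0.41 with the GC trend removed, adjusted p = 0.00588), and was at -0.19 ± 0.11 in WT cells (adjusted p = 0.235). Treated ADPKD cells were below vehicle-treated WT cells by -0.29 ± 0.11 (adjusted p = 0.0343), a call that ended with the GC or length trend removed (0.437 and 0.13) and without vehicle-treated WT replicate 2 or either treated ADPKD library (0.0608 to 0.353). The interaction was -0.53 ± 0.15 (adjusted p = 0.0219), at -0.21 with the GC trend removed (adjusted p = 0.322), and it did not pass when any 1 library was left out (0.0505 to 0.149), except vehicle-treated WT replicate 2 or treated WT replicate 2.

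Its collagen clients and their modifying enzymes went both ways. Of 24 genes 8 were higher and 9 lower in ADPKD cells with vehicle (median -0.05), and 2 were higher and 8 lower with the inhibitor in ADPKD cells (median -0.33). The fibrillar chains Col1a1 (2.45), Col1a2 (1.70) and Col3a1 (2.34) and the collagen chaperone gene Fkbp10 (2.01) were higher in ADPKD cells, and the basement membrane chains Col4a3 (-1.93) and Col4a5 (-1.82) lower. With the inhibitor in ADPKD cells Col1a1 (-1.02), Col5a1 (-1.67), Fkbp10 (-0.89) and the lysyl hydroxylase gene Plod1 (-1.28) fell, and Col4a5 rose (1.42). Col3a1 did not fall, with means of 92.4 CPM in vehicle-treated and 102 CPM in treated ADPKD cells. The means of Col1a2 were 114 and 85.7 CPM. Stromal markers, a list that holds 3 of these collagen genes, held 0.0335% to 0.0383% of counts in vehicle-treated WT, 0.0206% to 0.0325% in treated WT, 0.0839% to 0.0872% in vehicle-treated ADPKD and 0.0392% to 0.0441% in treated ADPKD libraries. Within that sum Cspg4 alone had 8536 and 3569 counts in vehicle-treated and 1193 and 741 in treated ADPKD libraries. Of the 13 markers 8 were higher and 1 lower in ADPKD cells with vehicle. With the inhibitor in ADPKD cells 0 were higher and 5 lower, and 8 were not called. The part of stromal markers in the Serpinh1 differences was not tested.

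The rest of the plasminogen system was described from a list of 42 other genes, of which 34 were tested. Between genotypes with vehicle 12 were higher and 13 lower in ADPKD cells (median -0.08), and with the inhibitor in ADPKD cells 7 were higher and 11 lower (median 0.07). Plasminogen itself (Plg) had at most 1 count in any library, so its RNA was not detectable in these cells at this depth. Of plasmin's inhibitors, Serpinf2 (alpha2-antiplasmin) was at 71.5 CPM in vehicle-treated WT and 1.54 CPM in vehicle-treated ADPKD cells on average (-5.53, edgeR adjusted p = 2.32e-09). With the inhibitor it was at 0.08 in ADPKD cells and lower in WT cells (-1.34, adjusted p = 0.000229). The urokinase inhibitor Serpinb2 had 72 and 60 counts in vehicle-treated WT, 27 and 11 in treated WT and at most 1 in every ADPKD library. Serpini1 (neuroserpin), an inhibitor of tissue plasminogen activator, fell with the inhibitor in ADPKD cells (-1.97, adjusted p = 0.00055).

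Receptors and activating proteases of the system also differed. Lrp2 (megalin), a receptor of the proximal tubule that clears many ligands, was at -7.13 between genotypes with vehicle and 4.29-fold higher with the inhibitor in ADPKD cells, both called. In WT cells it was lower with the inhibitor (-1.52, called). Its mean was 1420 CPM in vehicle-treated WT, 496 in treated WT and 43.5 in treated ADPKD cells. Lrp2 is itself among the 15 proximal tubule markers, and the part of those markers in the differences of this system was not tested. Lrp1, which takes up complexes of activators with their inhibitors, was higher in ADPKD cells (1.32) and lower with the inhibitor in them (-1.73), both called. Of the proteases that activate urokinase, Hpn (hepsin) was lower in ADPKD cells with vehicle (-3.47), with an interaction of 1.96 (edgeR adjusted p = 1.63e-05). St14 (matriptase) was at 315 and 356 CPM in vehicle-treated WT and higher, at 716 and 768 CPM, in vehicle-treated ADPKD libraries. It also rose with the inhibitor in WT cells (1.26). Procr, the endothelial protein C receptor, was lower with the inhibitor in ADPKD cells (-3.70) and in WT cells (-1.64), and so was Tfpi2, an inhibitor of plasmin (-1.88 in ADPKD and -1.09 in WT cells).

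Among the 59 other serpins without a pseudogene suffix, 22 were tested and 37 had too few counts. With vehicle 6 were higher and 10 lower in ADPKD cells (median -0.42), beside 28.8% higher and 27.6% lower over all genes. Serpina6 (corticosteroid-binding globulin) had 846 and 325 counts in vehicle-treated WT, 3 and 4 in vehicle-treated ADPKD and 37 and 28 in treated ADPKD libraries. Serpina1f had 3195 and 1393, 17 and 24, and 247 and 325 counts in the same groups, and Serpina1d 114 and 97, 3 and 1, and 26 and 40. These 3 genes and Serpina3f passed as lower in ADPKD cells with vehicle and as higher with the inhibitor in ADPKD cells. There 7 of the 22 were called higher and 3 lower. Proximal tubule markers as a sum moved alike, from 0.025% to 0.0287% of counts in vehicle-treated to 0.0483% to 0.0505% in treated ADPKD libraries. In treated WT libraries Serpina1f had 919 and 473 counts, Serpina1d 70 and 20, and Serpina6 516 and 801. The proximal tubule markers held 1.64% to 1.91% in vehicle-treated WT and 0.675% to 0.697% in treated WT libraries. With the inhibitor in WT cells 0 of the 15 were higher and 11 lower (median -1.24). Within the sum Kap alone had 24 and 42 counts in vehicle-treated and 2612 and 2977 in treated ADPKD libraries. Of the 15 markers 11 were higher and 2 lower with the inhibitor in ADPKD cells, and their part was not tested.

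**Figure D5:**
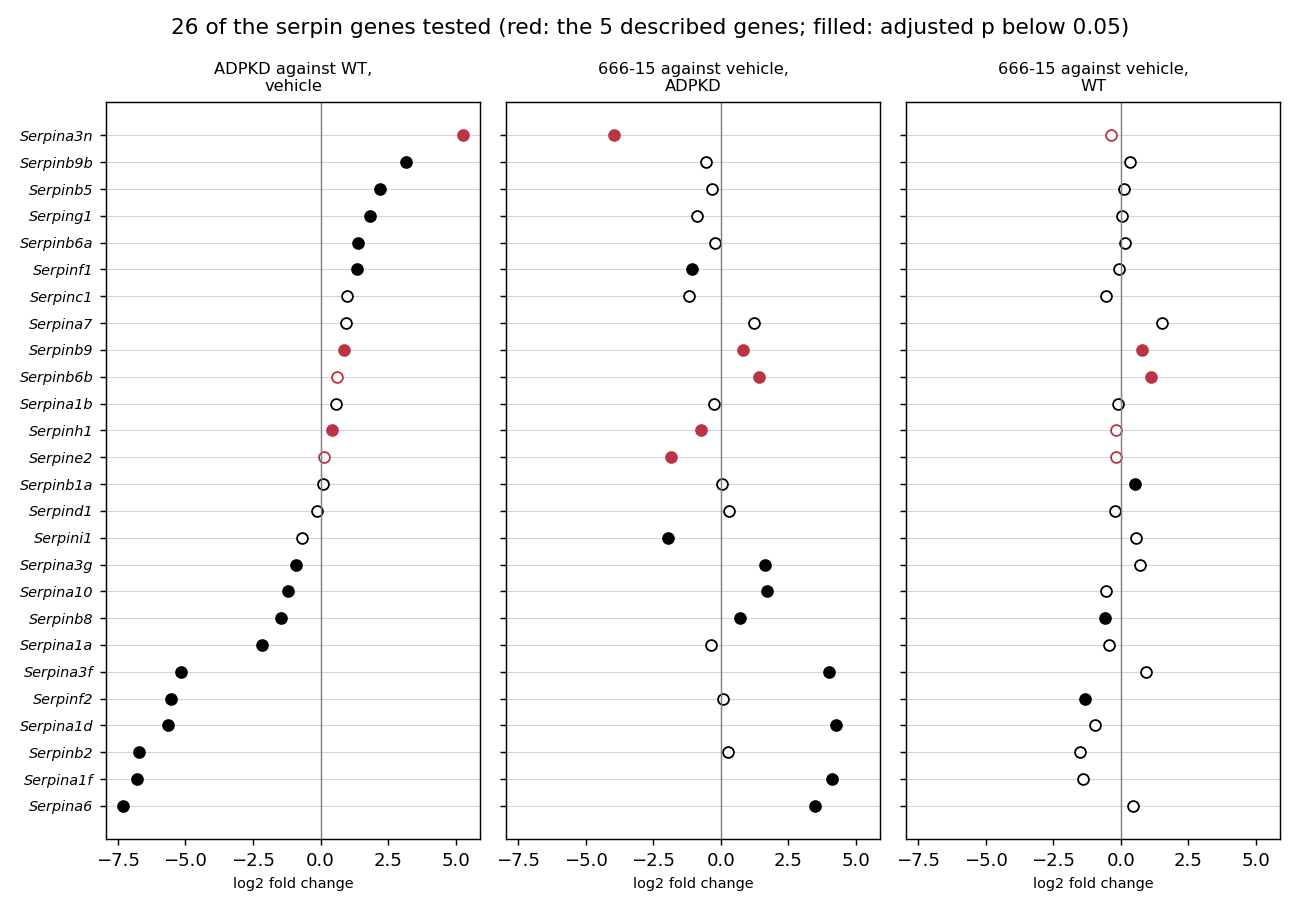
Log2 fold change of 26 serpin genes tested, ordered by the genotype difference with vehicle; red points are the 5 serpins described one by one, and filled points passed an edgeR adjusted p of 0.05. Serpina3n is at the top on the left and furthest to the left in the middle panel, and the serpins at the bottom on the left include 4 that lie to the right in the middle. Values of genes with near 0 counts in a group depend on the prior count of the fit.

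Of 17 proteases that serpins are known to block or that cleave their targets, 10 were tested. With vehicle 4 were higher and 4 lower in ADPKD cells (median 0.11), and with the inhibitor in ADPKD cells 0 were higher and 2 lower (median -0.15). Prss22, a tryptase known to activate pro-urokinase, was higher in ADPKD cells (4.17), fell with the inhibitor in ADPKD cells (-0.58) and rose in WT cells (1.21), with an interaction of -1.78 (edgeR adjusted p = 1.63e-05). Klk1, tissue kallikrein, was lower in ADPKD cells (-3.42) and lower again with the inhibitor (-1.34). Gzma, Ctsg, Elane and Prf1, proteases and the pore protein of cytotoxic cells and neutrophils, had at most 7 counts in any library.

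Over the 8 libraries, the genes most like each member were ranked by Pearson's r of log2 CPM among 10704 named genes with a mean of at least 5 CPM, as a description. Closest to Plau were Tcof1, Ttc9 and Cfdp1 (0.997, 0.995 and 0.995), and to Plaur Gnb1, Ccm2 and Nadk (0.997, 0.993 and 0.993). Closest to Serpina3n were Clip1, Timp1 and Hmga1 (0.994, 0.991 and 0.988), and to Serpine2 Tmem204, Lzts2 and Sh2d3c (0.995, 0.988 and 0.981). For Serpinh1 they were Sf3a2, Rps27l and Tnfrsf12a (0.991, 0.981 and 0.971), and for Plat Mrpl33, C1qtnf1 and Atp1b2 (0.993, 0.992 and 0.988). Serpinb6b was closest to Eif1a, Ndrg1 and Zfp280c (0.993, 0.992 and 0.987) and Serpinb9 to Rab6a, Erbin and Rffl (0.991, 0.989 and 0.988). Within the 8 genes r was 0.947 between Serpinb6b and Serpinb9, 0.845 between Plau and Plaur and -0.860 between Plau and Plat. The points share groups and libraries, so such values follow mostly from the 4 group means.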

How the data were processed

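Poly(A)-selected RNA of 8 libraries from DBA-positive kidney cells was sequenced. The deposited table holds raw counts per gene symbol; per the submitters' processing notes, HISAT2 2.1.0, featureCounts 1.6.0, DESeq2 and mm10 were used. How reads with several alignments were counted, the strand setting and the annotation are not given in the sources used here. Vehicle columns carry no treatment in their names and were matched by elimination.

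Counts were fitted in R 4.3.3 with edgeR 4.0.16 (filterByExpr, minimum count 10 and total 15; TMM; 1 robust quasi-likelihood model of 4 groups, checked on simulated data), two-sided, with Benjamini-Hochberg adjustment over 17440 genes at 0.05. The SE is the absolute log2 fold change divided by the square root of F. GENCODE M21 (GRCm38) gave positions, lengths and GC content; 96.9% of symbols matched. Promoters are RefSeq's (GRCm38.p6). Members and lists were chosen with earlier results of these data known. Besides the members, the text names up to 6 called genes per list and comparison with the largest change and a mean of at least 1 CPM, and preset pathway genes and close copies. Of the listed genes 1 is counted with its lists and not reported here. Alternatives, DESeq2 1.42.0 among them, are in the closing section.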

Additional observations from a re-analysis of the deposited data

Results flagged for a closer look

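The inhibitor difference of 4 of the 8 genes differed between genotypes by the interaction term of the edgeR fit (ADPKD minus WT, on the log2 scale). It was -3.58 for Serpina3n (adjusted p = 0.000749), with -3.95 in ADPKD and -0.37 in WT cells. For Plaur it was -1.14 (adjusted p = 0.00038), with -0.15 in ADPKD and 0.99 in WT cells. For Serpine2 it was -1.69 (adjusted p = 0.0323) and for Serpinh1 -0.53 (adjusted p = 0.0219), and these calls ended when most single libraries were left out. Groups of 2 libraries are too small for a test of outliers.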

How the results depend on the processing

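Of 808 values of the 8 genes under alternatives, 736 kept direction and side of the threshold, 40 lost the call, 12 gained it and 20 changed sign. The number of the 8 genes called ranged, with single libraries left out, from 1 to 5 for the inhibitor in WT cells (3 with all libraries) and from 2 to 5 for the interaction (4 with all). None of the values that changed sign was called with all libraries. For the inhibitor in WT cells Plat was -0.038 with RLE scaling and with DESeq2, -0.081 with at least 5 CPM in 2 libraries, -0.012 with the replicate block and -4e-04 with the length trend removed, and with single libraries left out it ran from -0.52 to 0.42. Serpinh1 between genotypes on inhibitor was 0.11 with the GC trend removed and 0.020 with the length trend removed, and the Serpinb9 interaction was -0.28 with the GC trend removed. The cause was not tested.

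With single libraries left out, the estimates ran as follows. For the inhibitor in ADPKD cells Plau ran from -0.14 to 0.067 and Plaur from -0.33 to 0.031. For the inhibitor in WT cells Serpina3n ran from -0.67 to 0.044 and Serpine2 from -0.77 to 0.25. For the interaction Serpinb9 ran from -0.15 to 0.36, Serpinb6b from -0.0082 to 0.70 and Plau from -0.0035 to 0.21.

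Same-numbered libraries showed no strong shared shift (correlations from -0.037 to 0.081 over 11199 genes). Whether the numbers mark a pairing of libraries is not known from this check. With the replicate block 7, 6, 3, 7, 8 and 3 of the 8 genes were called in the comparisons in the order of the report, Serpinb6b between genotypes with vehicle (0.59, adjusted p = 0.00244) and Plat for the inhibitor in ADPKD cells (-0.63, adjusted p = 0.0359) gained the call, and the Serpine2 interaction lost it (-1.67, adjusted p = 0.0551). Counts over all genes moved by over 1.5 times without treated ADPKD replicate 2 (inhibitor in ADPKD cells, 4783 against 7224; interaction, 3073 against 4636) and without vehicle-treated WT replicate 1 (inhibitor in WT cells, 2402 against 4448; interaction, 3037) or 2 (inhibitor in WT cells, 2887). Other serpins called moved from 4 to 7 (without treated WT replicate 1) or 2 (without either treated ADPKD library) for the inhibitor in WT cells, from 13 to 8 between treated ADPKD and vehicle-treated WT cells at 5 CPM, and from 9 to 5 for the interaction without treated ADPKD replicate 1. For the inhibitor in WT cells 1832 genes were higher and 2605 lower with at least 5 CPM, against 2420 and 2028. Genes with few counts, such as Serpina3n in WT libraries (14 to 35 counts), are limited by depth.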
